A study of Homo sapiens with 8 samples.

Results

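Metallothioneins are small, cysteine-rich proteins that bind zinc and copper, and this group of 9 genes held 8 of them, MT1E, MT1F, MT1G, MT1L, MT1M, MT1X, MT2A and MT3, with their regulator MTF1. The genes were found by Ensembl identifier matched to symbol among 57905 genes in a table of read counts for 8 libraries of human prostate cancer cells. They were chosen by their counts in the 4 LNCaP libraries, which differ, so their LNCaP values are given as a description with no test. Of the 9 genes, 6 had counts and 3 (MT1E, MT1L and MT1M) were at 0 in all 8 libraries.

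RNA was sequenced from EnzaR cells, a prostate cancer line resistant to the antiandrogen enzalutamide and kept in medium with 10 uM of it, and from enzalutamide-sensitive LNCaP cells, kept without it. EnzaR cells had received 40 nM of siRNA against YAP1 (siYAP1, 2 libraries) or of control siRNA (siNC, 2 libraries) for 48 h. LNCaP cells had been given, for 48 h, extracellular vesicles (EVs) from EnzaR cells that were treated with control siRNA (EV-siNC), depleted of YAP1 (EV-siYAP1) or depleted of COUP-TFII (EV-siCII), or had received no vesicles, under the label vehicle control (control), with 1 library each. YAP1 is a transcriptional co-activator that Hippo signalling restrains, and COUP-TFII is a nuclear receptor, the product of NR2F2. The labels give neither the vesicle dose nor the vehicle, and do not say that the 2 EnzaR libraries of a group were separate cultures, so a p-value here reflects library-to-library spread that may be only technical.

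Zinc binding to its zinc fingers lets MTF1 enter the nucleus and bind metal response elements in metallothionein promoters. Metallothioneins then take up the free metal, so that their transcripts follow the metal that a cell holds; glucocorticoids and oxidative stress are known to raise them as well. Prostate epithelium is known for its high zinc content, which falls in prostate cancer.

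RefSeq promoter sequences (GRCh38.p14) could be matched for 3 of the 9 genes. The 250 bases before the start of MT2A (chr16:56608334-56608583, plus strand) and MT1X (chr16:56682220-56682469, plus strand) are shown because they belong to genes with the largest differences below and hold the core of the metal response element. Capitals mark each match to TGCACNC or TGCGCNC on either strand.
MT2A: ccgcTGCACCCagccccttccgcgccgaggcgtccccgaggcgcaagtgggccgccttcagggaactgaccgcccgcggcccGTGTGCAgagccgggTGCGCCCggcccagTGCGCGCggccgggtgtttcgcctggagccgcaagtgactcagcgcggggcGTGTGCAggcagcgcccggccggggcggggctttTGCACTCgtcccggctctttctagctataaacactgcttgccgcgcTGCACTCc
MT1X: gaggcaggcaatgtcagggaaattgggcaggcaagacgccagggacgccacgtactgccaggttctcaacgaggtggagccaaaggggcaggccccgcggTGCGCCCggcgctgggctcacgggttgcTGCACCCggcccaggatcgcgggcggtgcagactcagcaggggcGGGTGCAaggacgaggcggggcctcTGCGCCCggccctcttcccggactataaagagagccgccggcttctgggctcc
MT2A held 7 matches, 5 on the strand of the gene and 2 on the other, and MT1X held 4, of which 3 were on the strand of the gene and 1 on the other. The same window of MTF1 held 0 matches. Among 35116 promoter windows of this length, 24.8% held at least 1 match, 0.370% held at least 4 and 0.0313% held at least 7. A match describes the letters of the window and is not a measured binding site.

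Total counts lay between 16682669 and 18248939 per library. CPM are counts scaled to a common library size. The 7 markers of luminal prostate cells read here, among them KLK3, were each at 1 CPM or more in all 8 libraries. The basal markers KRT5 and TP63 and the leukocyte markers PTPRC and CD3E had 0 counts in each. KRT14 on the basal list and CD14 on the leukocyte list had counts, at no more than 0.501 CPM in a library. VWF, an endothelial marker, and SYP, a neuroendocrine marker, were at 1 CPM or more in every library. The endothelial list summed to 7.67 to 9.04 CPM in EnzaR and 10.8 to 13.7 CPM in LNCaP libraries. For the neuroendocrine list these sums were 2.38 to 4.08 and 1.54 to 2.32 CPM, and for the hepatocyte list 0.387 to 1.72 and 0.684 to 1.61 CPM. The fibroblast list summed to 17.6 to 21.9 CPM in EnzaR and 98.2 to 115 CPM in LNCaP libraries, with COL1A1 its only member at 1 CPM in every library. YAP1 itself was at 5.79 and 7.07 CPM in the siYAP1 libraries, against 57.4 and 47.6 CPM in the siNC libraries (log2 fold change -3.02, SE 0.154, edgeR quasi-likelihood test, adjusted p = 2.07e-10).

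The LNCaP comparisons asked how vesicles of resistant cells bear on the transcripts of sensitive cells. The metallothionein genes were lower in each of the 3 libraries given vesicles than in the library without them, and least so in EV-siCII. Summed over the family, 32.5 CPM were measured in EV-siNC, 27.9 CPM in EV-siYAP1 and 61.9 CPM in EV-siCII, against 136 CPM in control (589, 496, 1091 and 2327 counts). The sum was thus 4.19-fold lower in EV-siNC, 4.88-fold lower in EV-siYAP1 and 2.20-fold lower in EV-siCII than in control. All CPM here are scaled by trimmed mean (TMM) over the 4 LNCaP libraries, and with 1 library per group there is no replicate check. In bulk RNA, fewer cells that hold a transcript and less of it per cell cannot be told apart.

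MT2A, the main metallothionein of most tissues (ENSG00000125148, hg19 chromosome 16, 56642111 to 56643409), made up the largest part. It was at 17.3 CPM in EV-siNC, 13.0 CPM in EV-siYAP1 and 36.5 CPM in EV-siCII, against 79.2 CPM in control. Control was the highest library, and EV-siCII lay between it and the other vesicle libraries. That arrangement was held by 16.1% of genes with a mean of 5 CPM or more over the LNCaP libraries. The log2 ratios to control were -2.19 in EV-siNC, -2.60 in EV-siYAP1 and -1.11 in EV-siCII, with exact 95% intervals for counting error of -2.38 to -2.02, -2.82 to -2.41 and -1.25 to -0.98. Intervals of this kind cover counting error only, here and below.

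MT1G, a metallothionein of the MT1 group (chromosome 16, 56700643 to 56701977, minus strand), was at 4.30 CPM in EV-siNC, 2.64 CPM in EV-siYAP1 and 9.52 CPM in EV-siCII, against 20.1 CPM in control. EV-siYAP1 was its lowest library, at 47 counts against 343 in control. Its log2 ratios to control were -2.19, -2.87 and -1.07 in EV-siNC, EV-siYAP1 and EV-siCII, with intervals of -2.60 to -1.86, -3.40 to -2.48 and -1.35 to -0.80.

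MT1X, another MT1 gene (chromosome 16, 56716336 to 56718108), was at 5.07 CPM in EV-siNC, 4.11 CPM in EV-siYAP1 and 6.07 CPM in EV-siCII, against 18.4 CPM in control. Here EV-siCII lay close to the other vesicle libraries, and their intervals of the level overlapped (4.09 to 6.22, 3.22 to 5.16 and 4.97 to 7.33 CPM). The log2 ratios to control were -1.84, -2.14 and -1.58 in EV-siNC, EV-siYAP1 and EV-siCII.

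MT1F (chromosome 16, 56691606 to 56694610) kept another order. It was at 5.40 CPM in EV-siNC, 7.48 CPM in EV-siYAP1 and 8.90 CPM in EV-siCII, against 16.3 CPM in control, with log2 ratios of -1.57, -1.11 and -0.87. EV-siNC was thus its lowest library, where EV-siYAP1 was lowest for MT2A, MT1G and MT1X.

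**Figure D1:**
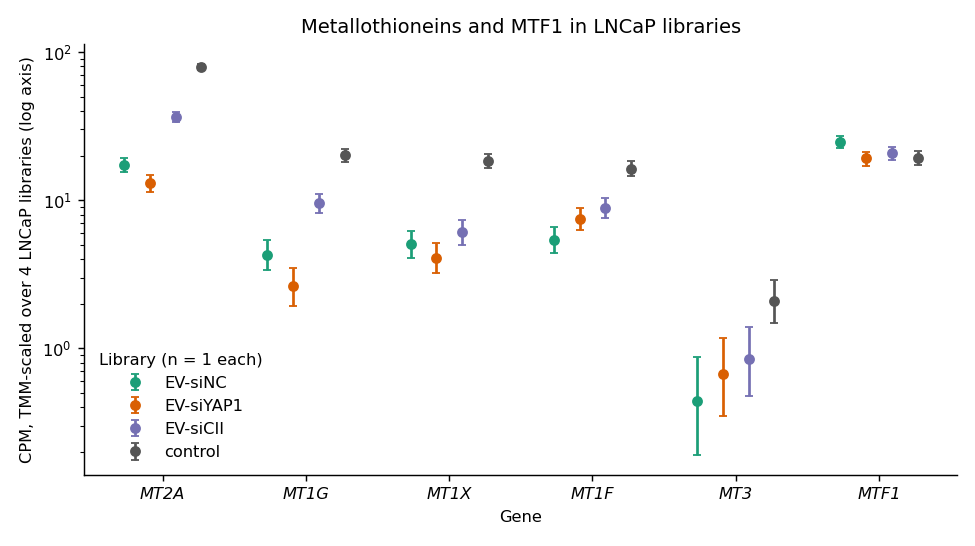
Level of 6 genes in the 4 LNCaP libraries (CPM, TMM-scaled, log axis; points are single libraries, bars are exact 95% intervals for counting error). Control is the highest library for the 5 metallothioneins shown, as it is for 36% of genes with a mean of 5 CPM or more. MTF1 lies between 19.1 and 24.6 CPM in all 4 libraries.

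MT3, the metallothionein known from the brain (chromosome 16, 56622986 to 56625000), had 8 counts in EV-siNC, 12 in EV-siYAP1 and 15 in EV-siCII, against 36 in control. Its mean lay below the 5 CPM set for the counts that follow. MT1E, MT1L and MT1M (chromosome 16, within 56651388 to 56667898) had no counts, and 3 counts, the limit that a count of 0 allows, would equal 0.164 to 0.180 CPM. Whether reads that match several copies were counted is not given in the sources used here. Of the 50-base stretches in the transcripts of MT1X and MT1G in a GRCh38 annotation, 18.3% and 16.5% also occur in another gene, against 3.02% in MT2A and 1.22% in MT1F, so levels of MT1X and MT1G are the less certain ones.

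MTF1 (ENSG00000188786, chromosome 1, 38275239 to 38325292, minus strand), the zinc-sensing factor, was not lower beyond counting error in any vesicle library than in control. It was at 24.6 CPM in EV-siNC, 19.1 CPM in EV-siYAP1 and 20.8 CPM in EV-siCII, against 19.2 CPM in control. The log2 ratios to control were 0.36 (0.15 to 0.57), -0.0046 (-0.23 to 0.22) and 0.11 (-0.11 to 0.33), the last pair with intervals that include 0.

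Few genes of these libraries lay as far from control. Among 10777 genes with a mean of 5 CPM or more over the LNCaP libraries, 7 (0.065%) were at least 2-fold lower in EV-siNC than in control, 24 (0.223%) in EV-siYAP1 and 11 (0.102%) in EV-siCII. Of these, 4, 4 and 3 were metallothionein genes; MT1F missed 2-fold in EV-siCII. In the other direction 15 (0.139%), 47 (0.436%) and 6 (0.0557%) genes were 2-fold higher, with none of the 9. For EV-siYAP1, scaling by library totals gave 74 higher and 18 lower. The GC correction gave 4 higher and 6 lower in EV-siNC, 11 and 27 in EV-siYAP1 and 1 and 11 in EV-siCII. The 3 lowest log2 ratios of all in EV-siNC, and likewise in EV-siYAP1, were those of MT1G, MT2A and MT1X, and MT1X had the lowest in EV-siCII. Only 5 genes (0.0464%) were 2-fold lower in all 3 vesicle libraries: MT1G, MT2A, MT1X and 2 identifiers without a name. The 3 comparisons share the control library, and the genes were chosen for this difference, so nothing is read from these counts.

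**Figure D2:**
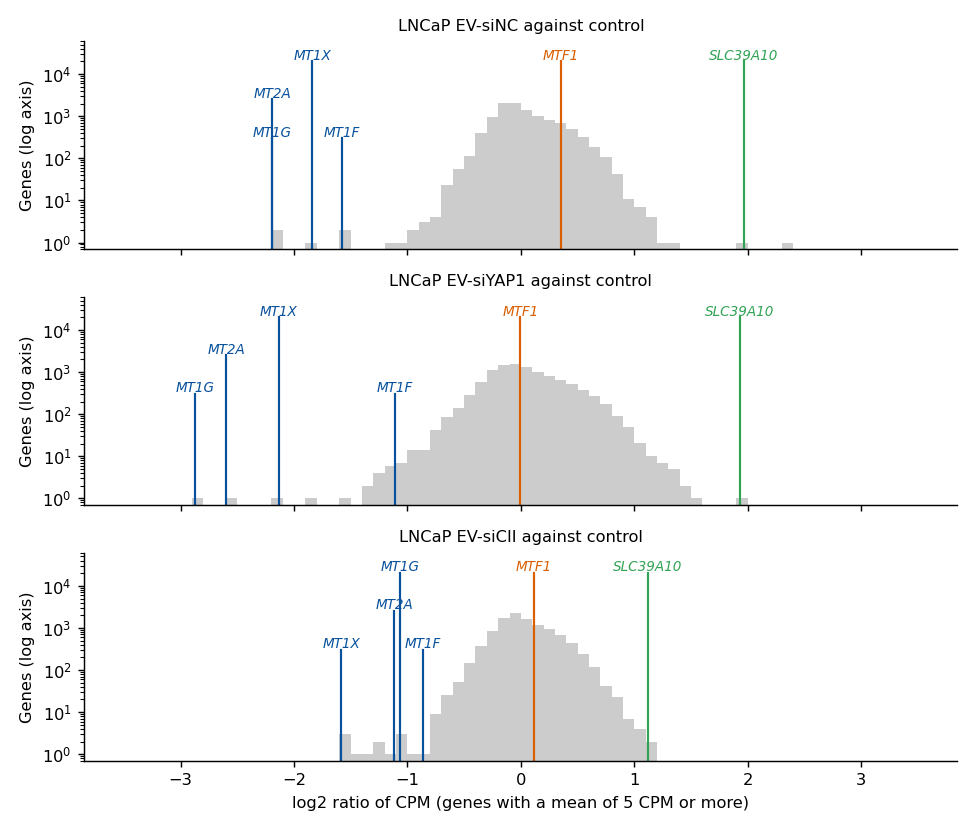
Log2 ratios of each vesicle library to control for 10777 genes (grey bars of width 0.1, number of genes on a log axis), with named genes as lines. MT1G, MT2A and MT1X lie far left of the bulk in EV-siNC and EV-siYAP1, MTF1 lies within it at 0.36 and -0.0046, and SLC39A10 lies at the right, at 1.96 and 1.93.

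Between libraries that both received vesicles, the family was closest for EV-siYAP1 and EV-siNC. The summed family had a log2 ratio of -0.22 (-0.39 to -0.04) for EV-siYAP1 to EV-siNC. MT1G was at -0.68 (-1.26 to -0.16) and MT2A at -0.41 (-0.66 to -0.16). MT1X was at -0.30, with an interval of -0.77 to 0.15 that includes 0. MT1F ran the other way, at 0.46 (0.08 to 0.86), and MTF1 was at -0.36. Of the genes, 5 (0.0464%) were 2-fold lower and 2 (0.0186%) were 2-fold higher in EV-siYAP1 than in EV-siNC, and 0 of the 9 genes described here were among them. As a measure of spread, the log2 ratio between the EnzaR replicates was -0.17 in siYAP1 and 0.07 in siNC libraries for the sum, and -0.24 and 0.06 for MT1G. Between siYAP1 replicates (2 against 1), 1 of 10502 genes (0.00952%) was 2-fold lower and 6 (0.0571%) were 2-fold higher, and between siNC replicates 2 (0.019%) and 3 (0.0286%) were. For MT2A the ratio between replicates was -0.15 in siYAP1 and 0.09 in siNC libraries, and for MT1F it was -0.29 and 0.11. The ratio of the sum between EV-siYAP1 and EV-siNC is near that of the siYAP1 pair, and larger than that of the siNC pair. Those of MT2A, MT1G, MT1X and MT1F are larger in size than both of their replicate ratios, with MT1F opposite in sign to the others. For MT1X the replicate ratios were -0.010 in siYAP1 and 0.0082 in siNC libraries, while its interval between EV-siYAP1 and EV-siNC includes 0. For MT2A the EnzaR ratios rest on 2440 to 3306 counts, against 231 and 313 in EV-siYAP1 and EV-siNC. They come from another line too, and may understate the spread between LNCaP libraries.

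EV-siCII held 61.9 CPM of the family, against 32.5 CPM in EV-siNC, a log2 ratio of 0.93 (0.78 to 1.08). MT1G was at 1.13 and MT2A at 1.08 on this scale, MT1F at 0.71, and MT1X at 0.25 with an interval that includes 0. MT1G and MT2A were 2 of the 3 genes (0.0278%) that were 2-fold higher in EV-siCII than in EV-siNC. Without MT2A, the log2 ratio of the summed family was 0.73. MT2A, MT1G and MT1X had the order EV-siYAP1, EV-siNC, EV-siCII, control from low to high, an order held by 10.1% of the genes, while 9.45% held its reverse.

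Libraries given vesicles also differed from control by base composition. The median log2 ratio to control was 0.32, 0.36 and 0.25 in EV-siNC, EV-siYAP1 and EV-siCII for the fifth of genes with the lowest GC content, and -0.11, -0.10 and -0.08 for the fifth with the highest. Metallothionein transcripts with counts hold 53.7% to 59.2% GC. Genes of the same GC content as MT2A had a median log2 ratio of -0.11, -0.11 and -0.07, against -2.19, -2.60 and -1.11 for MT2A itself.

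All 8 metallothionein genes lie within 95123 bases of chromosome 16 (hg19). In this span lie 18 genes, and those outside the group had at most 34 counts in a library. Within 250000 bases of its ends, 5 other genes are described that passed the mean of 5 CPM: NUDT21, OGFOD1, BBS2, NUP93 and HERPUD1. In the 3 vesicle libraries their log2 ratios to control lay between -0.22 and 0.26, and 0 of the 5 passed 2-fold in any of them. MT1DP, a pseudogene inside the span, was at 25, 19 and 21 counts in EV-siNC, EV-siYAP1 and EV-siCII, against 23 in control.

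**Figure D3:**
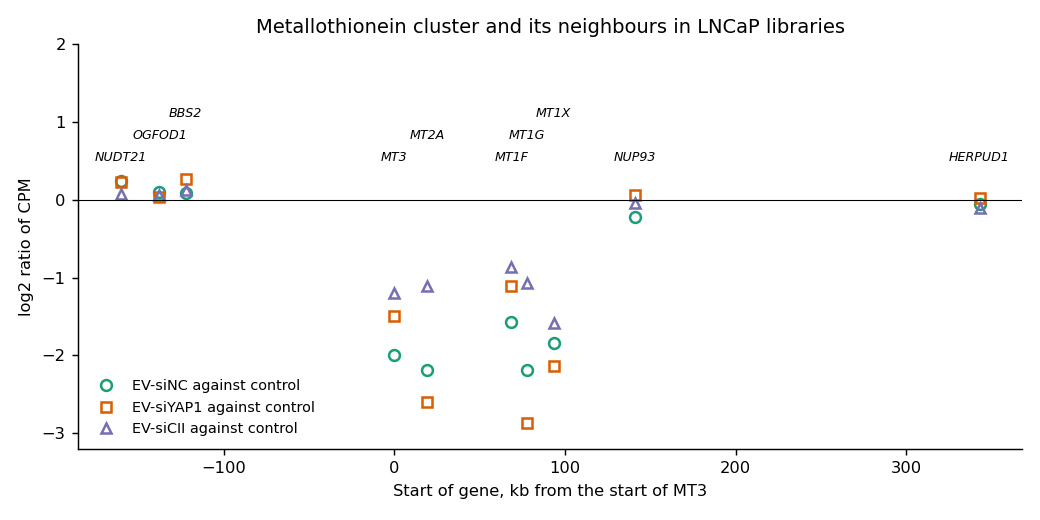
Log2 ratio of each vesicle library to control by position on chromosome 16 (kb from the start of MT3), for the metallothionein genes with counts and 5 neighbours past a mean of 5 CPM. The metallothionein genes lie at -0.87 or lower and these neighbours between -0.22 and 0.26.

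Genes of zinc and copper handling were followed in 7 lists. In LNCaP cells 1 gene on them passed 2-fold, SLC39A10, an importer of zinc whose transcription MTF1 is known to repress in mouse and zebrafish. SLC39A10 was at 32.5 CPM in EV-siNC, 31.8 CPM in EV-siYAP1 and 18.1 CPM in EV-siCII, against 8.25 CPM in control. Its levels had the reverse of the order seen for the summed family except between EV-siNC and EV-siYAP1, whose log2 ratio was -0.03. The log2 ratios of SLC39A10 to control were 1.96, 1.93 and 1.12. It was 1 of 3 named genes (0.0278%), with NPAT and CEP295, that were 2-fold higher in all 3 vesicle libraries. SLC39A10 is poor in GC, and genes of its GC content had a median log2 ratio of 0.33, 0.40 and 0.27.

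SLC30A1, the zinc exporter that MTF1 is known to activate in mouse, was at 6.39 CPM in EV-siNC, 6.97 CPM in EV-siYAP1 and 6.18 CPM in EV-siCII, against 7.25 CPM in control. Its log2 ratios of -0.18, -0.06 and -0.23 had intervals that include 0. Of the lists, 7 of 10 MTF1-linked genes, 11 of 14 zinc importers, 7 of 10 zinc exporters and 9 of 11 copper genes passed the mean of 5 CPM. So did 12 of 13 genes of the heavy metal and heat shock response and 8 of 10 glucocorticoid-responsive genes, and 0 of 12 other metallothionein genes and pseudogenes. Median log2 ratios to control in EV-siNC, EV-siYAP1 and EV-siCII were -0.02, -0.06 and -0.23 for MTF1-linked genes and -0.04, 0.08 and -0.04 for importers. They were 0.24, 0.12 and 0.17 for exporters and -0.17, -0.15 and -0.21 for copper genes. For the heavy metal list they were 0.03, 0.04 and -0.04, and for the glucocorticoid list -0.04, 0.03 and -0.07, against -0.02, -0.0018 and -0.0070 for all genes. NR3C1, the glucocorticoid receptor, had 1 count in EV-siNC and 0 in each of the other 7 libraries.

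The members were picked on LNCaP values, though with earlier results of these data known. In EnzaR cells the comparison asked what differs when YAP1 is depleted. MT2A, MT1X and MT1G were higher in siYAP1 than in siNC libraries, by 0.37 to 0.58 on the log2 scale, and MT1F, MT3 and MTF1 did not pass the test. Values are CPM scaled over the 4 EnzaR libraries, and adjusted p-values come from edgeR's quasi-likelihood test with Benjamini-Hochberg adjustment over 14948 genes.

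MT2A was at 205 and 185 CPM in siYAP1 libraries, against 129 and 137 CPM in siNC libraries. Both siYAP1 libraries lay above both siNC libraries. The share of all genes whose groups separate in this way was not counted, and MTF1 and SLC30A1, neither called, also did not overlap. The means were 195 ± 14.1 and 133 ± 5.80 CPM (SD, n = 2 each), and the log2 fold change was 0.56 (SE 0.097, edgeR adjusted p = 0.00215).

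MT1X was at 48.6 and 48.2 CPM in siYAP1 libraries, against 32.3 and 32.5 CPM in siNC libraries. Here replicates differed by under 1 CPM while the groups stood apart. Its log2 fold change was 0.58 (SE 0.113, edgeR adjusted p = 0.00445).

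MT1G was at 175 and 149 CPM in siYAP1 libraries, against 122 and 128 CPM in siNC libraries. The siYAP1 replicates lay farther apart than the siNC ones. The means were 162 ± 18.6 and 125 ± 3.74 CPM (SD, n = 2 each), with a log2 fold change of 0.37 (SE 0.101, edgeR adjusted p = 0.0247). With a GC correction MT1G was no longer called (log2 fold change 0.25, edgeR adjusted p = 0.167), nor with scaling by library totals (edgeR adjusted p = 0.081). Nor was it called without siNC replicate 1 or siNC replicate 2 (log2 fold changes 0.34 and 0.40, edgeR adjusted p = 0.134 and 0.0598).

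Without siYAP1 replicate 1, the calls of the metallothionein genes were lost. In that fit 15 genes rose and 11 fell among all 15683 tested. The log2 fold changes were then 0.47 for MT2A, 0.56 for MT1X and 0.24 for MT1G (edgeR adjusted p = 0.096, 0.125 and 0.302).

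MT1F was at 14.2 and 11.6 CPM in siYAP1 libraries, against 9.01 and 9.72 CPM in siNC libraries. The gene missed the threshold (log2 fold change 0.46, SE 0.175, edgeR adjusted p = 0.0888). MT3 had 10 and 5 counts in siYAP1 and 21 and 7 in siNC libraries, and these overlapped. MTF1 was at 22.0 and 27.4 CPM in siYAP1 libraries, against 31.1 and 27.9 CPM in siNC libraries, with a log2 fold change of -0.25 (SE 0.136, edgeR adjusted p = 0.226).

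Of the 8 metallothionein genes, 5 were tested; 3 rose and 0 fell. Over all 14948 genes, 872 (5.83%) rose and 930 (6.22%) fell, or 291 and 1416 with scaling by library totals, which moved the median log2 fold change of all genes to -0.13. The median log2 fold change was 0.46 for the 5 tested metallothionein genes and -0.03 for all genes, with TMM scaling. Since genes with no counts in either group drop out of the test, these 5 do not stand for all 8. The summed family was at 444 and 394 CPM in siYAP1 libraries, against 293 and 307 CPM in siNC libraries, a ratio of 1.39.

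**Figure D4:**
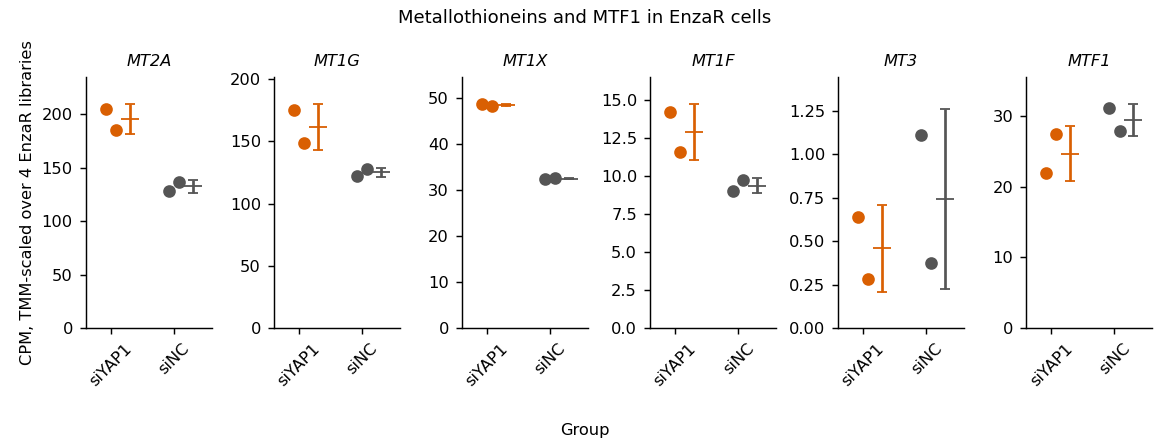
CPM of 6 genes in EnzaR libraries, siYAP1 left of siNC in each panel; points are libraries, dashes with bars are mean ± SD (n = 2), and each panel has its own scale from 0. MT2A, MT1G, MT1X and MT1F are higher and MTF1 is lower in both siYAP1 libraries, by edgeR called for the first 3 alone. The share of all genes whose groups separate in this way was not counted. MT3 overlaps between groups.

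The same 7 lists showed scattered changes in EnzaR cells. Of 8 MTF1-linked genes tested, 1 rose and 1 fell. SELENOH, a selenoprotein with metal response elements in mouse, rose by 0.53 on the log2 scale (edgeR adjusted p = 0.00474), and NDRG1, a stress-responsive gene, fell by 0.48 (edgeR adjusted p = 0.00751). Among 12 zinc importers tested, SLC39A4 and SLC39A3 rose (log2 fold changes 0.63 and 0.53), and SLC39A6 fell (-0.45). Of 7 zinc exporters tested, SLC30A9 fell (-0.43). Of 10 copper genes tested, ATOX1, a copper chaperone, rose (0.42), while ATP7A, a copper pump, and STEAP2, a metalloreductase, fell (-0.75 and -0.35). With the GC correction 4 of these calls were lost, at log2 fold changes of -0.22 for SLC39A6, -0.15 for SLC30A9, -0.47 for ATP7A and -0.052 for STEAP2 (edgeR adjusted p = 0.232, 0.502, 0.214 and 0.809). DESeq2 missed SLC30A9 and ATP7A (adjusted p = 0.0516 for both), and library totals ended the call of ATOX1 (edgeR adjusted p = 0.0942).

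Without siYAP1 replicate 1 none of these 9 genes was called, with log2 fold changes of 0.38 for SELENOH, -0.47 for NDRG1, 0.43 for SLC39A4, 0.45 for SLC39A3 and -0.38 for SLC39A6. In that fit SLC30A9 was at -0.38, ATP7A at -0.94, ATOX1 at 0.26 and STEAP2 at -0.38. Without siNC replicate 1 the calls of SLC39A3 (0.41), ATOX1 (0.24) and STEAP2 (-0.30) were lost. Without siNC replicate 2 those of SLC39A6 (-0.33), SLC30A9 (-0.31), ATP7A (-0.73) and STEAP2 (-0.40) were lost, and without siYAP1 replicate 2 those of SLC30A9 (-0.49), ATP7A (-0.57) and STEAP2 (-0.31). Of 12 alternatives, 8 called SLC39A6, 6 each SLC30A9 and ATP7A, and 5 STEAP2.

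No gene of the heavy metal list (13 tested) or of the glucocorticoid list (9 tested) passed the edgeR threshold. In each list 3 genes had an unadjusted edgeR p under 0.05, as did 4339 of all 14948 genes tested. DESeq2 called 0 on these lists and 1439 among all genes. The 1 other metallothionein gene tested, MT1DP, was at a log2 fold change of 0.94 (edgeR adjusted p = 0.167). The median log2 fold change was -0.24 for MTF1-linked genes, 0.08 for zinc importers, -0.27 for zinc exporters and 0.12 for copper genes. It was 0.04 for the heavy metal list and -0.14 for the glucocorticoid list, against -0.03 for all genes. SLC39A10 was at 6.93 and 10.5 CPM in siYAP1 libraries, against 12.0 and 13.2 CPM in siNC libraries (log2 fold change -0.52, SE 0.194, edgeR adjusted p = 0.0796). With the GC correction its log2 fold change was -0.23 (edgeR adjusted p = 0.546), and over 12 alternatives it ran from -0.85 to -0.23. SLC30A1 was at 24.6 and 24.7 CPM in siYAP1 libraries, against 31.6 and 27.6 CPM in siNC libraries (edgeR adjusted p = 0.176).

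Between the lines, the family was higher in EnzaR siNC libraries than in the LNCaP control, with CPM now scaled over 8 libraries. The sum was at 311 ± 8.05 CPM (SD, n = 2) in siNC libraries and 131 CPM in LNCaP control (n = 1), a ratio of 2.37. MT1G differed most, at 129 ± 3.06 CPM in siNC libraries and 19.3 CPM in control, or 6.70-fold. MT1X was 1.89-fold and MT2A 1.80-fold higher in siNC libraries. MT1F ran the other way, at 9.69 ± 0.458 CPM in siNC libraries and 15.7 CPM in control, a log2 ratio of -0.70. Lines differed widely: 20.1% of 10880 genes were 2-fold higher and 12.6% were 2-fold lower in siNC libraries, and MT1G was the 1 gene of this group past 2-fold among those with a mean of 5 CPM. The line, the drug in the medium and the siRNA cannot be told apart here.

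In every library from EnzaR cells, the authors' FPKM, a level per exonic length, put MT1G first. It was at 219.8 and 195 FPKM in siYAP1 and 172 and 174 FPKM in siNC libraries. MT2A came next, at 149 and 141 FPKM in siYAP1 and 104 and 107 FPKM in siNC libraries, then MT1X and MT1F. In the LNCaP libraries MT2A came first, at 13.4 FPKM in EV-siNC, 10.1 in EV-siYAP1 and 28.3 in EV-siCII, against 59.0 in control. MT1G took 37.7% to 41.7% of the family's counts in EnzaR libraries and 9.48% to 15.4% in LNCaP libraries. MT2A took 43.8% to 47.1% in EnzaR libraries, so by counts it came before MT1G there. The FPKM order in EnzaR libraries rests on exonic lengths of 750 bases for MT1G and 1299 bases for MT2A. MT1F took 26.8% in EV-siYAP1 (exact 95% interval 23.0% to 30.9%), 16.6% in EV-siNC and 14.4% in EV-siCII, against 12.0% in control (10.7% to 13.4%).

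**Figure D5:**
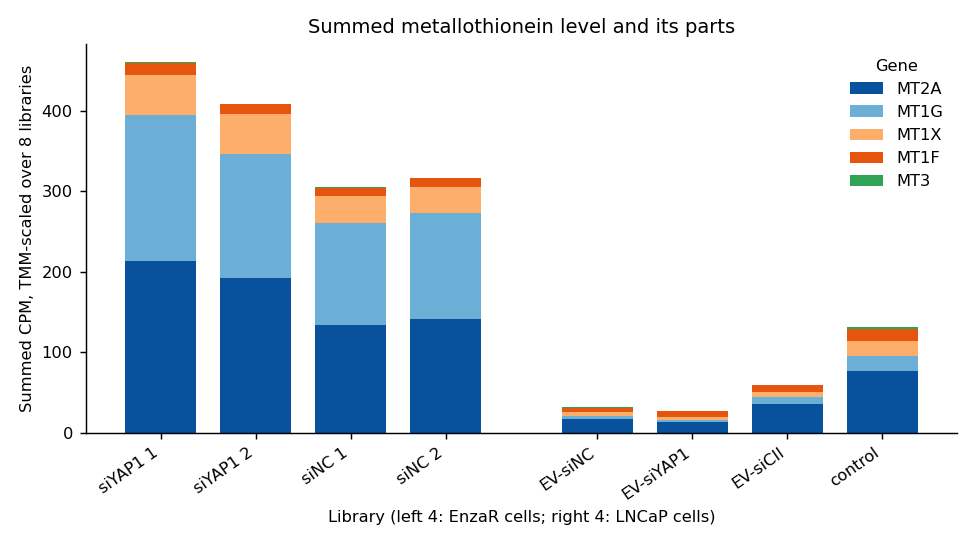
Summed metallothionein level by library (CPM scaled over 8 libraries; bars from 0, colours are genes, EnzaR libraries at left and LNCaP libraries at right). The sum runs between 305 and 460.2 CPM in EnzaR libraries and is 31.5, 26.9 and 59.6 CPM in EV-siNC, EV-siYAP1 and EV-siCII, against 131 CPM in control.

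Across the 8 libraries the order of the sum was EV-siYAP1, EV-siNC, EV-siCII, LNCaP control, EnzaR siNC and EnzaR siYAP1 from low to high, and the lowest pair differed by little more than the siYAP1 replicates do. The profile of the sum, as log2 CPM centred on its mean, was nearest to those of TICRR, CDCA5, GLRX2, SLC29A1, MCM5 and SRSF3 among 8918 named genes outside the group with a mean of 10 CPM. Their root mean square differences from it were 0.44, 0.46, 0.47, 0.48, 0.48 and 0.51 log2 units over 8 libraries. Within the group it was 0.16 for MT2A, 0.23 for MT1X, 0.82 for MT1G, 1.25 for MT1F and 1.41 for MTF1. Both lines enter this measure, so the difference between the lines weighs on it.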

How the data were processed

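Total RNA of 4 EnzaR and 4 LNCaP libraries was analysed, with groups taken from the sample labels. The authors deposited raw read counts per gene and FPKM on hg19. Each FPKM matched the count scaled by exonic length and by the total of its column. Per the submitters' processing notes the tools included HISAT2 2.0.1, HTSeq 0.6.1, DESeq2 and cutadapt 1.9.1. Neither the strand setting nor the treatment of reads with several matches is given in the sources used here. Reads of overlapping genes on opposite strands can therefore not be told apart, and for genes on the same strand no strand setting would do so. MT1X and MT1M each overlap 1 other gene, on the same strand for MT1X. MTF1 overlaps 2, of which 1 is on its own strand. Gene names matched 39538 of 57905 identifiers, with 98.96% of counts, and 0 rows named no gene. No pair of libraries agreed within sampling noise (chi-square over its degrees of freedom 4.71 or more). This value was 6.36 between the siNC and 7.48 between the siYAP1 replicates. Between LNCaP control and EV-siNC, EV-siYAP1 and EV-siCII it was 7.63, 12.9 and 7.56, and between vesicle libraries it was 4.71 to 5.30.

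The EnzaR test was the robust quasi-likelihood fit of edgeR 4.0.16 (R 4.3.3) after filterByExpr and TMM scaling, with an adjusted p threshold of 0.05, and was tested on simulated data. For LNCaP libraries, TMM-scaled CPM gave log2 ratios (prior count 2) for genes with a mean of 5 CPM, with exact 95% binomial intervals. Families were summed as counts. The members and the 7 lists were chosen with earlier results of these data known. The text names the 9 members, SLC39A10, SLC30A1, up to 4 called genes per list and the 6 nearest profiles; NR3C1, MT1DP, NPAT, CEP295 and the neighbouring genes were added after their values were seen. Some marker and neighbouring genes are not reported here. Alternatives were DESeq2 1.42.0, other scalings, floors and prior counts, a GC correction, a replicate block, a fit to all 8 libraries, and leaving out each replicate. Names and promoters came from RefSeq and gene tables of GRCh38.p14, matched by identifier or symbol.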

Additional observations from a re-analysis of the deposited data

How the results depend on the processing

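Over 637 alternatives, 548 gave the same direction and side of the threshold as the values reported (or moved within the spread), 53 fell short of it, 2 passed it newly, 31 counts or values moved and 3 reversed. For named genes in EnzaR cells, 172 of 216 were the same, 40 fell short, 1 passed newly and 3 reversed. For named genes in LNCaP libraries, which have no test, 267 of 270 were the same. For counts and sums 109 of 151 were the same. Some alternatives could not change a value, such as the sum without MT1L, a gene at 0 counts. MT2A and MT1X were called higher in siYAP1 in every alternative but that without siYAP1 replicate 1, with log2 fold changes of 0.45 to 0.64 and 0.48 to 0.60. MT1G was called in 5 of 12 alternatives (0.24 to 0.50) and MT1F in 0 of 12. Deviations of same-numbered EnzaR libraries from their group means had a correlation of -0.08. That gave no sign of pairing by number, though 2 libraries per group cannot settle it. With the replicate block, 564 genes rose and 845 fell, and MT1G had an edgeR adjusted p = 0.0509.

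Among all genes, 872 rose and 930 fell. DESeq2 called 567 lower. Library totals gave 291 higher and 1416 lower, the GC correction 232 and 203, and the GC correction with replicate block 271 and 286. Leaving out 1 replicate gave 15 to 940 higher and 11 to 829 lower, the lowest counts without siYAP1 replicate 1; such fits take the spread of the group still in duplicate for the single library. SLC30A1 reversed to 0.030 with the GC correction and to 0.037 with the replicate block added. MT3 ran between -1.40 and 0.26 when 1 replicate was left out. Neither was called. The causes were not tested.

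In LNCaP libraries, library totals gave 23 and 74 genes 2-fold higher in EV-siNC and EV-siYAP1 than in control. A floor of 1 CPM gave 69 lower and 126 higher in EV-siNC, 127 and 194 in EV-siYAP1 and 62 and 100 in EV-siCII against control. Against EV-siNC it gave 105 and 65 in EV-siYAP1 and 76 and 75 in EV-siCII. A floor of 10 CPM gave 2 lower and 3 higher, 10 and 11, and 6 and 1 against control, with 3 and 0 in EV-siYAP1 and 1 higher in EV-siCII against EV-siNC. The GC correction gave 4, 11 and 1 higher against control. Without MT2A the summed log2 ratio was -1.90 in EV-siNC and -1.92 in EV-siYAP1 against control, and -0.029 in EV-siYAP1 and 0.73 in EV-siCII against EV-siNC. MT3 had at most 36 counts in a library, so its ratios are the least precise.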
